A study of Mus musculus with 5 samples.

Results

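CD8+ T cells of MC38 tumors, a mouse colon adenocarcinoma line grown under the skin of male wild-type C57BL/6J mice, were described in 2 single-cell library reactions that measured RNA and surface antibodies in the same droplets. Members were chosen by their own RNA. Barcodes with at least 200 genes and under 10% mitochondrial unique molecular identifiers (UMIs) were kept. A barcode was called a CD8+ T cell when it held at least 1 UMI of Cd8a or Cd8b1 and at least 1 of Cd3d, Cd3e, Cd3g, Trac and Trbc2. It also had to hold no UMI of Cd4 or Foxp3, under 20 UMIs of C1qa, C1qb and C1qc per 10000 and under 5 UMIs of H2-Ab1. The rule found 654 members among 57094 MC38 barcodes that passed the filter, which are 360 of 33762 in reaction 1 (1.07%, exact 95% interval 0.960 to 1.18) and 294 of 23332 in reaction 2 (1.26%, 1.12 to 1.41). The files of the whole series held 191492 barcodes before any filter. Intervals for counts and shares cover counting error only.

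The mice carried 1 of 4 treatments, and all animals had MC38 tumors. Control mice received isotype antibodies with vehicle. On days 3, 6 and 9, CPI mice received checkpoint inhibitors, antibodies to PD-1 and CTLA4. The other two groups received isotype antibodies or CPI and then 20 mg/kg ABT-317, a JAK1 inhibitor, on day 12, and tumors were harvested on day 15. Live CD45+ and CD45- cells were sorted and mixed in equal parts, so shares of barcodes were set in part by the mixing. Each treatment had 1 DNA-tagged antibody (hashtag) in a reaction, so a hashtag marked a treatment and not a mouse, and the 2 reactions were the only replicates. P values therefore measured the spread between these reactions, which may be technical.

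CD8+ T cells recognize peptides on MHC class I through the T cell receptor and its CD3 subunits, with the CD8α and CD8β chains as coreceptor. Activated cells kill through perforin and granzymes and secrete IFN-γ, TNF and chemokines. Under lasting antigen they acquire inhibitory receptors such as PD-1 (Pdcd1) and TIM-3 (Havcr2), while a progenitor-like pool keeps the transcription factor TCF-1 (Tcf7). Janus kinases carry the signals of many cytokine receptors, including that for IFN-γ, to STAT factors.

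Surface proteins were read through 15-base DNA tags, printed here for the antibodies on which the results below turn. They are given 5′ to 3′ and wholly in capitals, since the whole tag is read. The first 3 test the label, the next 3 passed a test against at least 1 other class or between subsets of the members over all barcodes, and the last 3 are the inhibitory receptors.
CD8a: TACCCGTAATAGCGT
CD8b: TTCCCTCTATGGAGC
CD4: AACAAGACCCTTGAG
CD5: CAGCTCAGTGTGTTG
CD90.2: CCGATCAGCCGTTTA
CD71: ACCGACCAGTAGACA
CD279 (PD-1): GAAAGTCAAAGCACT
CD366 (TIM-3): ATTGGCACTCAGATG
CD223 (LAG-3): ATTCCGTCCCTAAGG
The hashtags of the CPI and isotype groups, carried alone by 324 of the 654 members (49.5%), were different oligonucleotides in the 2 reactions.
CPI, reaction 1: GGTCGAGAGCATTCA
CPI, reaction 2: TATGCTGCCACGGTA
isotype, reaction 1: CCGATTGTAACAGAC
isotype, reaction 2: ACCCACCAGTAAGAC

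Members fell into barcodes with exactly 1 hashtag above background (171 in reaction 1 and 162 in reaction 2), with several hashtags (173 and 89) and with none (16 and 43). These sets differed widely in depth. Median RNA UMIs per barcode were 1251 and 1238 with 1 hashtag, 15560 and 19670 with several, and 1042 and 956 with none. Barcodes with 2, 3 and 4 hashtags had medians of 12410, 22430 and 28240 UMIs in reaction 1 and of 13880, 35480 and 50480 in reaction 2. Of members with several hashtags, 69.4% and 71.9% had at least 2500 genes, against 3.51% and 8.02% of those with 1 hashtag. A barcode with several hashtags can hold more than 1 cell. No doublet caller was run, so levels are given mainly over members with exactly 1 hashtag and comparisons are repeated on that set. With exactly 1 hashtag there were 11 and 12 Tregs (regulatory T cells), 18 and 29 conventional CD4+ T cells and 12 and 15 NK cells, so their levels rest on few cells. The reactions shared 1416 barcodes over all barcodes of the files, and no member's barcode was a member in both.

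**Figure D1:**
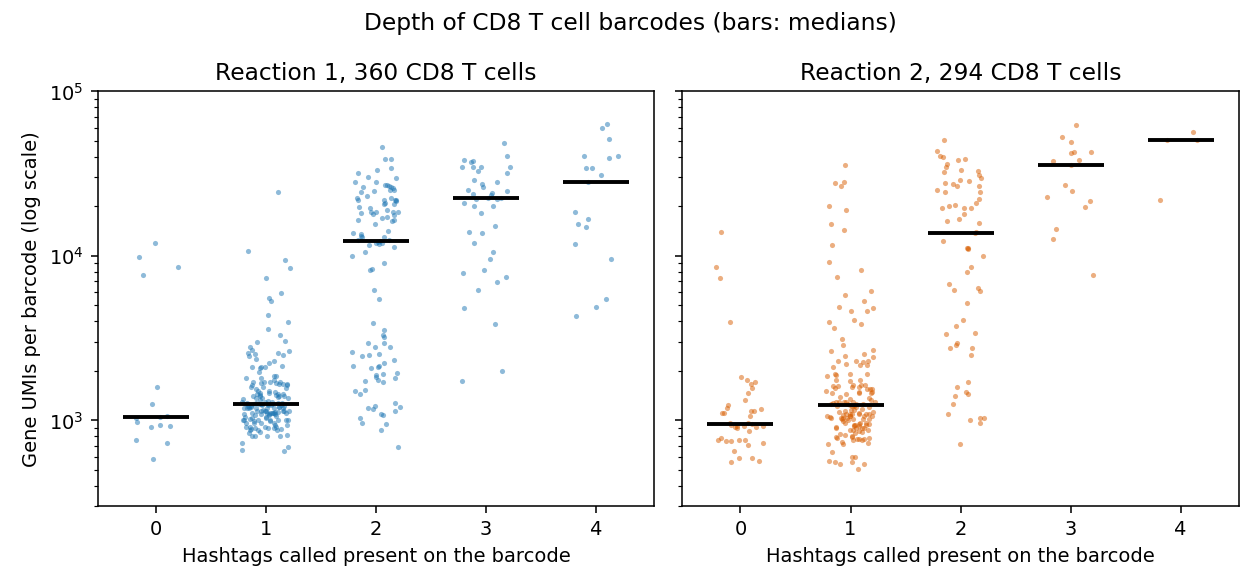
RNA UMIs per barcode (log axis) of CD8+ T cells in MC38 tumors by number of hashtags above background and by reaction, each point a barcode. Barcodes with 1 hashtag had medians of 1251 and 1238 UMIs, and those with several had medians of 15560 and 19670.

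The defining transcripts of the label were present, and the surface protein, which the rule did not use, went with them. Label markers are given as a description, since 4 of the 6 chose the members. In the members with 1 hashtag, levels in CPM (the summed UMIs of a gene over all summed UMIs of the same barcodes, scaled to 1000000) were 406 and 326 for Cd8a and 523 and 416 for Cd8b1 in reactions 1 and 2. Nkg7, a cytotoxic granule protein that the rule did not use, was at 974 and 789 CPM against 3.17 and 1.02 in the C1q-high macrophages with 1 hashtag. Deep barcodes weigh more in such sums, and among members with the CPI hashtag alone Nkg7 was at 1126 and 1261 CPM. Its level was 108 and 127 CPM in the members with several hashtags, and the 6 label markers together reached 4011 and 3766 CPM with 1 hashtag against 528 and 586 with several. The natural killer receptor gene Ncr1, the γδ T cell constant gene Trdc and the keratins Krt7, Krt8, Krt18 and Krt19 were at or near 0, with the keratin list at 3.25 and 0 CPM in sum. The whole NK cell list was not, at 292 and 155 CPM in sum against 1337 and 2080 in NK cells. A UMI of that list lay in 32.2% and 28.4% of members with 1 hashtag, and one of the dendritic cell list in 54.4% and 45.7%. Fibroblast transcripts were present, at 7768 and 9252 CPM over the 5 genes of that list, and macrophage transcripts at 2033 and 1462 CPM over 9 genes, against 26890 and 30380 CPM in the macrophages. The fibroblast genes were unevenly spread: in members with 1 hashtag the median barcode held 7.92 and 0 UMIs of them per 10000 and the highest 1510 and 1380. The part of these transcripts in the results below was not tested beyond the values given.

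The rule had thresholds on single UMIs, so many members lay close to it. Exactly 1 UMI of Cd8a and Cd8b1 together was held by 202 members in reaction 1 and 133 in reaction 2, and only 1 of the 5 T cell receptor genes was detected in 96 and 64. Of the barcodes with CD8 and T cell receptor UMIs (568 and 518), 168 and 187 exceeded the C1q limit. Members at 15 to under 20 C1q UMIs per 10000 numbered 22 and 18, and barcodes just outside, at 20 to under 25, numbered 11 and 8.

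Most CD8+ T cells with 1 hashtag carried that of CPI tumors. Of the members with exactly 1 hashtag, 163 of 171 in reaction 1 and 144 of 162 in reaction 2 carried the CPI hashtag, or 45.3% and 49% of all members. The members with the CPI hashtag were 7.73% (exact 95% interval 6.63 to 8.96) of 2108 and 10.2% (8.66 to 11.9) of 1413 barcodes with that hashtag alone. The isotype hashtag was carried by 7 and 10 members, or 0.0661% (0.0266 to 0.136) of 10585 and 0.107% (0.0515 to 0.197) of 9315 barcodes. With isotype plus ABT-317 there were 1 and 4 members (0.0337% and 0.184%). With CPI plus ABT-317 there were 0 of 2153 barcodes in reaction 1, which allows a share of up to 0.139% by 3 counts of the total (0.171% by the exact interval), and 4 in reaction 2 (0.193%). The CPI share lay above each of the other 3 in both reactions and its interval overlapped none of theirs. No test across animals can be made with 1 hashtag per treatment and reaction. When each barcode was instead given to its leading hashtag, if that led by at least 1 natural log unit, the CPI share was 2.95% and 4.32%, against 0.252% and 0.246% for isotype, 0.653% and 0.600% for isotype plus ABT-317 and 0.519% and 0.490% for CPI plus ABT-317. When hashtags were first centred on their background, the leading hashtag gave CPI shares of 6.49% and 9.26%, against 0.104% and 0.127% for isotype. The centred shares were 0.272% and 0.474% for isotype plus ABT-317 and 0.0343% and 0.310% for CPI plus ABT-317. CPI stood above the rest under each of these rules, and the distance depended on the rule. The study's flow cytometry counted CD8+ T cells per mg of tumor, which is another measure. It reported no difference in that count when ABT-317 was added to CPI.

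**Figure D2:**
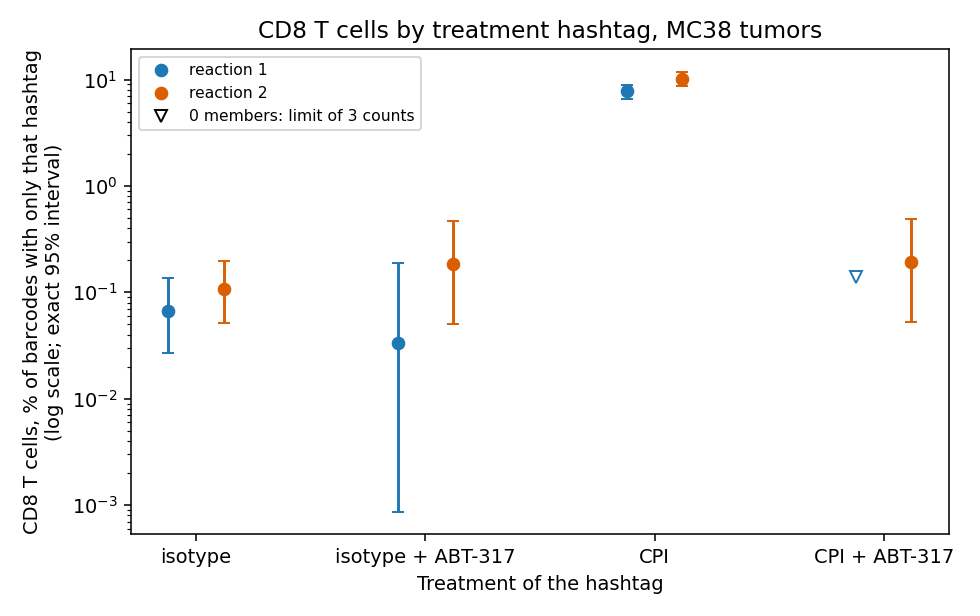
Share of barcodes with exactly 1 hashtag that were CD8+ T cells, by treatment and MC38 reaction, in percent with exact 95% intervals on counting error. CPI stood at 7.73% and 10.2%, and the other 3 treatments were at or below 0.193%.

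Hashtag levels differed between cell types, and beyond the leading hashtag shares above their part in the shares was not tested. The median member stood 1.63 natural log units above background for the CPI hashtag in both reactions and 0.288 and 0.0182 for the isotype hashtag. The C1q-high macrophages stood at 0.102 and 0.0639 for CPI and at 2.03 and 2.10 for isotype. Of the conventional CD4+ T cells, 17 of 43 and 23 of 52 carried the CPI hashtag alone, and 1 and 6 the isotype hashtag. Tregs carried isotype alone in 6 and 5 barcodes and CPI alone in 5 and 7, and NK cells carried isotype in 6 and 9 and CPI in 5 and 5. A larger number of CD8+ T cells in CPI tumors and a change in the cells with which they were mixed cannot be told apart from shares.

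Cytotoxic effector genes were detected whole in members with 1 hashtag, 18 of 18 in both reactions. Their summed level was 3475 and 3043 CPM, against 8689 and 20230 CPM in NK cells with 1 hashtag. Ctsw, a protease of cytotoxic cells, was at 286 and 235 CPM, and Fasl, the ligand of the death receptor Fas, at 94.2 and 88.6. Gzmb was at 74.7 and 155 CPM and perforin (Prf1) at 35.7 and 39.9. Gzmk was at 52 (29.7 to 84.4) and 35.4 (20.3 to 57.6) CPM in CD8+ T cells, with no UMI in NK cells, which allows up to 37.8 and 25.2 CPM there by 3 counts, so the counting intervals reach below these limits. Gzmc was at 6.50 and 8.86 CPM against 4426 and 6459 in NK cells. Gzma was likewise at 19.5 and 4.43 CPM against 265 and 1082.

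Among secreted products, Ifng stood at 266 and 248 CPM. It was at 0 and 57.3 CPM in Tregs, 175 and 32.6 in conventional CD4+ T cells, 0 and 50.3 in NK cells and under 1 in macrophages, all with 1 hashtag, so both CD8+ T cell values lay above every other one. Values of the other lymphocyte classes here and below rest on few cells and often few UMIs, and their order was not tested. The classes compared also differed in treatment. CD8+ T cells carried the CPI hashtag alone in 163 and 144 barcodes and isotype in 7 and 10, macrophages CPI in 250 and 176 and isotype in 4534 and 4729. The chemokine gene Ccl4 was at 1884 and 1544 CPM, above Tregs (197 and 344), conventional CD4+ T cells (350 and 1077) and NK cells (164 and 75.5) and below macrophages (6102 and 6460). Ccl5 was at 1435 and 1721 CPM, with conventional CD4+ T cells at 1507 and 702. Tnf was at 263 and 228 CPM against 569 and 709 in macrophages. After thinning each barcode to 1000 UMIs, which kept 140 of 171 and 115 of 162 members with 1 hashtag, Ifng was detected in 19.3% and 22.6% of them and in 0.1% and 0% of macrophages. Nkg7 was detected in 60.7% and 65.2% against 0.15% and 0.2%. For Ccl5 the shares were 50.7% and 50.4% of members against 16.1% and 15.8% of macrophages.

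Genes of inhibitory receptors were detected alongside, and the conventional CD4+ T cells and Tregs held as much or more of several. Pdcd1, which encodes PD-1, was at 133 and 137 CPM, against 210 and 310 in conventional CD4+ T cells, 49.2 and 28.6 in Tregs and none in NK cells, all with 1 hashtag. It was detected in 15% and 15.7% of thinned members and in 0.05% and 0.2% of macrophages. Havcr2 reached 101 and 66.5 CPM, above the 35.0 and 32.6 of conventional CD4+ T cells, but macrophages held 73.4 and 64.5. Its thinned detection was 10.7% and 9.57% against 6.2% and 6.1% in macrophages. Ctla4, at 123 and 77.5 CPM, was higher in Tregs at 639 and 430, and Tigit, at 48.7 and 73.1 CPM, was at 246 and 200.5 there. Tox, a transcription factor of exhausted cells, was at 87.7 and 33.2 CPM against 280 and 147 in conventional CD4+ T cells, and Lag3 was at 19.5 and 6.64. Of 22 genes in the list of inhibitory receptors and exhaustion regulators, 20 and 21 were detected, with a sum of 2553 and 1991 CPM against 4101 and 3655 in conventional CD4+ T cells.

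The study linked another set of genes to dysfunction. Dennd4a, a guanine nucleotide exchange factor gene, stood at 1065 and 917 CPM, above Tregs (836 and 630), conventional CD4+ T cells (841 and 767), NK cells (492 and 210) and macrophages (305 and 246) with 1 hashtag. Its detection after thinning was 66.4% and 68.7%, against 53.3% and 58.3% in conventional CD4+ T cells. Tnfaip3, an inhibitor of NF-κB signaling, was at 497 and 421 CPM against 806 and 489.5 in conventional CD4+ T cells. Hif1a, the oxygen-sensing factor, was at 312 and 255 CPM against 701 and 473. Among members with the CPI hashtag alone, Tnfaip3 was at 573 and 725 CPM, above the conventional CD4+ T cells in reaction 2. Hif1a was at 357 and 377 CPM in those members, below them in both reactions. With 2 values per class and few cells in the other classes, these levels are descriptions of the reactions.

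The JAK-STAT list was detected whole, 29 of 29 genes in both reactions, with a sum of 3001 and 2567 CPM, below conventional CD4+ T cells (5363 and 4519) and Tregs (5901 and 4183) and above NK cells (1551 and 1871). Jak1, which encodes the target of ABT-317, was at 289 and 193 CPM and was detected in 27.1% and 25.2% of thinned members against 10.4% and 9.9% of macrophages. Jak2 was at 74.7 and 44.3 CPM and Jak3 at 26 and 33.2. Stat4, which carries IL-12 signals, was at 214 and 206 CPM and Stat3 at 227 and 155. Of the feedback inhibitors, Socs1 was at 71.5 and 99.7 CPM and Cish at 58.5 and 68.7.

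Among genes of naive and recirculating cells, 12 of 14 and 13 of 14 were detected. Tcf7 was at 26 and 28.8 CPM and Ccr7 at 32.5 and 15.5, while the IL-7 receptor gene Il7r was at 299 and 188 CPM, against 70.1 and 147 in conventional CD4+ T cells. Klf2, which supports egress from tissue, was at 117 and 452 CPM. Among members with the CPI hashtag it was at 108 and 246 CPM. The 10 isotype members of reaction 2 held 91 of its UMIs, 81.3% of them in 1 barcode. Cxcr6, a receptor of tissue-resident T cells, was at 214 and 175 CPM and was detected in 26.4% and 21.7% of thinned members against 0.05% and 0% of macrophages. Itgae, which encodes CD103, was at 6.5 and 15.5 CPM. The costimulatory receptor gene Icos was at 260 and 217 CPM against 666 and 359 in conventional CD4+ T cells. The costimulation list was lower in sum, at 1250 and 964 CPM against 3155 and 2415. Among members with the CPI hashtag alone, Icos was at 308 and 385 CPM, above the conventional CD4+ T cells in reaction 2. The list sum was at 1474 and 1613 CPM in those members, still lower in both.

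**Figure D3:**
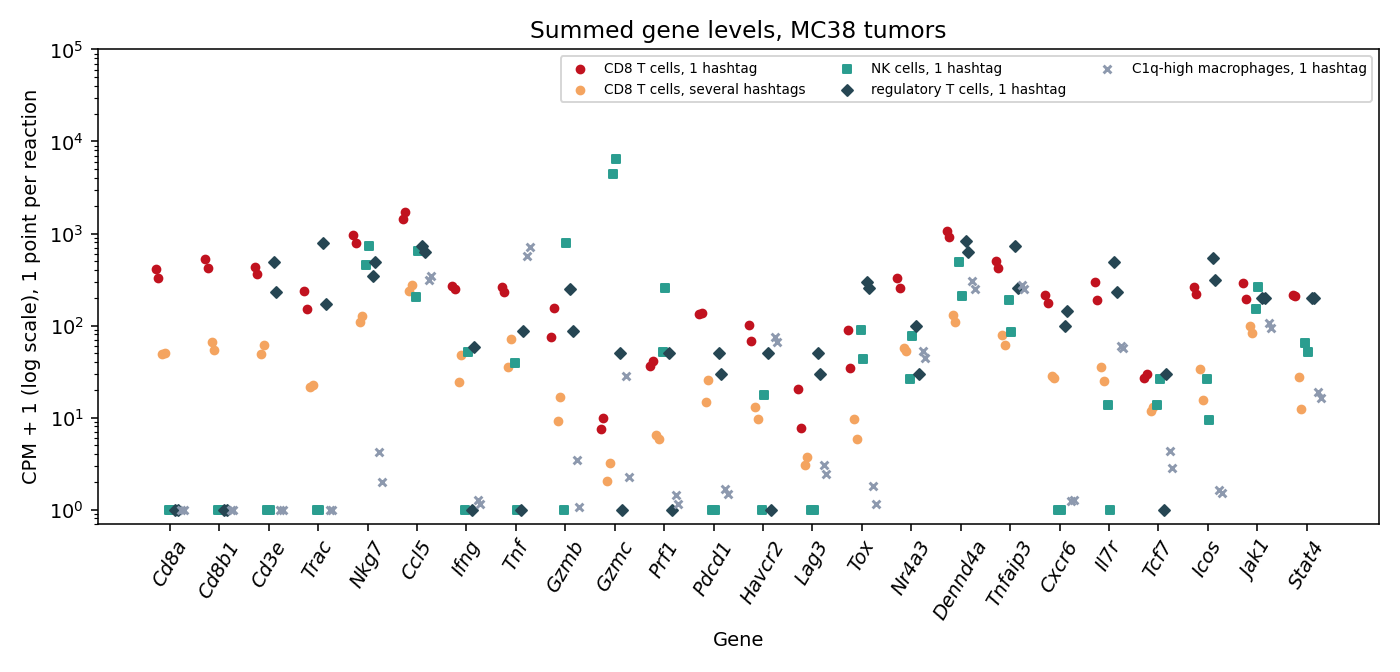
Summed level (CPM plus 1, log axis) of 24 genes in CD8+ T cells with 1 hashtag and with several, and in NK cells, Tregs and C1q-high macrophages with 1 hashtag, each point a reaction. Nkg7 was at 974 and 789 CPM in CD8+ T cells with 1 hashtag and at 108 and 127 with several, and the zeros of the CD8 genes outside CD8+ T cells and of the T cell receptor genes in NK cells and macrophages were set by the rules that defined the classes.

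Compared with Tregs over all members, 31 of 2514 genes at 50 CPM or more (1.23%) were at least 2-fold higher in CD8+ T cells in both reactions, and 28 of 2307 (1.21%) were at least 2-fold lower. These ratios are descriptions with no test, since RNA chose the classes. Deep barcodes, most of them with several hashtags, weigh most in sums over all members. In these sums the 6 label markers reached 885 and 1368 CPM, against 4011 and 3766 with 1 hashtag and 528 and 586 with several. Apart from the CD8 genes, the higher genes included Ly6c2 and Ly6c1, which encode the Ly-6C antigens, Klrd1, Ctsw, Ifitm1, Gramd3, Pde7a and Nr4a3, an orphan nuclear receptor gene that follows T cell receptor signals. Nr4a3 was at 82.4 and 93.9 CPM, 1.88 log2 units above Tregs in reaction 1, and at least 1.87 in reaction 2, where Tregs held only 2 UMIs and the ratio was taken against 3. The lower genes were led by Foxp3, which the rule excluded, and by Ikzf2, the transcription factor Helios, at −3.79 and −4.94 log2 units. The TNF receptor family genes Tnfrsf4 (−3.37 and −4.86), Tnfrsf18 (−2.68 and −3.22) and Tnfrsf9 (−2.57 and −3.49) followed, with Il2ra at −3.05 and −3.82 and Ctla4 at −1.80 and −3.39. Pglyrp1, Ifi27l2a, Cd83, Arl5a and Phlpp1 completed the 12 lowest. The collagen genes Col1a1 and Col1a2 headed the list of higher genes, at 2.87 and 3.12 and at 2.82 and 3.98 log2 units. They were carried by few barcodes: among CPI members with 1 hashtag, Col1a2 UMIs lay in 22 of 163 and 16 of 144, and the top barcode held 45.3% and 38.7% of them. Over barcodes with exactly 1 hashtag in every class, 21 of 2707 genes (0.776%) were higher and 282 of 2035 (13.9%) lower, so the number of lower genes depended on the barcodes used. In that set Ikzf2 lay at −4.63 and −4.99 and Tnfrsf4 at −4.58 and −4.69 log2 units, and Ccl4 was 3.26 and 2.17 log2 units higher.

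Against NK cells, again over all members, 22 of 2514 genes (0.875%) were at least 2-fold higher and 25 of 2336 (1.07%) lower in both reactions. Besides CD3 and CD8 genes, the higher set held the T cell signaling genes Themis and Grap2, and Il7r and Icos. Themis, which sets T cell receptor signals in development, had no UMI in NK cells and was at least 2.61 and 2.50 log2 units higher. The lower set was dominated by the granzyme cluster Gzmc, Gzmd, Gzme, Gzmf and Gzmg. Gzmc lay at −10.40 and −10.30 log2 units and Gzma at −5.23 and −4.69. The NK receptor genes Klrb1c, Ncr1 and Klre1 were lower too, with Klre1 at −3.69 and −3.91. NK cells were chosen by UMIs of Ncr1 or Klrb1c, so the direction of both genes was set by the rule. Txk, Irf8 and Tyrobp (−2.61 and −3.99), an adaptor of activating receptors, were also lower. Against conventional CD4+ T cells, only 7 genes (0.278%) were higher and 21 of 2471 (0.85%) lower, the smallest numbers of the 3 comparisons. With exactly 1 hashtag in every class, the shares were 8.35% higher and 2.4% lower against NK cells and 0.332% higher and 6.94% lower against conventional CD4+ T cells. In that set Ly6c2 was 1.84 and 3.30 log2 units above conventional CD4+ T cells, and Penk, the proenkephalin gene, had 3 and 1 UMIs against 18 and 23.

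Surface antibodies provided measurements that the rule did not use. Levels are antibody UMIs per 10000 UMIs of the 122-antibody panel. Summed counts per class and reaction were compared by edgeR's quasi-likelihood test (two-sided) with Benjamini-Hochberg adjustment, with 2 sums per class. CD8b was at 23.9 and 22.6 in CD8+ T cells, 4.59 and 6.76 in Tregs, 8.05 and 5.84 in conventional CD4+ T cells, 4.62 and 6.23 in NK cells and 5.06 and 5.26 in macrophages. The CD8+ T cell values overlapped those of no other class. CD8a was at 42.5 and 43.3 against 22.8 to 26.0 in the other lymphocyte classes and 24.6 and 31.2 in macrophages, and CD4 at 9.72 and 9.09 against 17.0 and 17.2 in conventional CD4+ T cells. Tregs stood at 10.7 and 10.7 for CD4, and the difference from CD8+ T cells did not pass (log2 difference −0.28, adjusted p = 0.138 by edgeR). The label was therefore checked by CD8a and CD8b against the 3 other lymphocyte classes, with no test against macrophages, and by CD4 against conventional CD4+ T cells only.

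Compared with Tregs, 13 of 122 antibodies (10.7%) differed, 6 higher (4.92%) and 7 lower (5.74%) in CD8+ T cells. CD5, an inhibitor of T cell receptor signals, was at 39.5 and 32.7 in CD8+ T cells against 123 and 104 in Tregs, a log2 difference of −1.75 (SE 0.102, adjusted p = 9.9e-05 by edgeR's quasi-likelihood test). CD90.2, the Thy-1 antigen, was at 100.0 and 83.9 against 43.4 and 45.9, a log2 difference of 0.94 (SE 0.128, adjusted p = 0.0046). CD357, which is GITR, the product of Tnfrsf18, was at 33.8 and 31.8 against 50.3 and 48.3 (log2 difference −0.69, SE 0.0584, adjusted p = 0.000565). For each of these 3 proteins the values of the classes did not overlap, and Tnfrsf18 RNA was lower as well. The other lower antibodies were CD278 (ICOS, −0.48), CD45 (−0.47), CD54 (−0.39), CD73 (−0.31) and CD103 (−0.29), and the other higher ones were CD11a (0.54), CD86 (0.22) and CD94 (0.22), along with CD8a and CD8b. The CD86 call was lost when counts were scaled by library size or by the isotype control antibodies. With exactly 1 hashtag in every class, 11 antibodies (9.02%) differed, CD73 (−0.13), CD54 (−0.44) and CD94 (0.25) no longer passed, the differences of the latter pair being as large as before, and CD2 was lower in CD8+ T cells (−0.69, adjusted p = 0.0031 by edgeR). The CD54 call was also lost with the reaction as a block, at −0.39 (adjusted p = 0.052 by edgeR).

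Compared with conventional CD4+ T cells, 5 antibodies (4.1%) differed, 2 higher (1.64%) and 3 lower (2.46%). CD5 was again lower, against 102 and 94.2 in the CD4+ cells (log2 difference −1.42, SE 0.101, adjusted p = 0.00036 by edgeR). CD90.2 was at 105 and 87.2 in the CD4+ cells, and the difference did not pass (log2 difference −0.04). CD43, a sialomucin, was at 18.6 and 17.4 against 26.5 and 24.0 (log2 difference −0.47, SE 0.0855, adjusted p = 0.026). That call was lost with the reaction as a block at the same log2 difference of −0.47 (adjusted p = 0.064 by edgeR), with library size scaling and with 2 CD8 UMIs required. The remaining 3 were CD8a, CD8b and CD4. With exactly 1 hashtag, all 5 stayed and CD2 was lower as well (−0.49, adjusted p = 0.012 by edgeR).

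Compared with NK cells, 12 antibodies (9.84%) differed, 8 higher (6.56%) and 4 lower (3.28%). CD5 was higher here, against 15.3 and 12.8 in NK cells (log2 difference 1.41, SE 0.109, adjusted p = 0.00063 by edgeR), so CD8+ T cells lay between NK cells and the CD4+ classes for this protein. CD90.2 was higher by 1.26 (SE 0.130), against 40.3 and 39.5. CD2, an adhesion receptor, was higher by 0.88, CD11a, the integrin chain of LFA-1, by 0.62, CD48 by 0.46 and CD86 by 0.38. The complement regulator CD55 was lower, at 17.2 and 17.9 against 34.9 and 64.8 (log2 difference −1.45, adjusted p = 0.010). CD45RB (−0.92), Ly49D (−0.43) and CD61 (−0.42) were lower too. With exactly 1 hashtag in every class the balance turned, with 18 antibodies (14.8%) called, 7 higher (5.74%) and 11 lower (9.02%). CD48 no longer passed there (0.26), and the added lower antibodies were the integrin chains CD29 (−0.70) and CD51 (−0.39), the tetraspanins CD9 (−0.58) and CD63 (−0.49), CD98 (−0.43), CD45 (−0.41) and Ly-49A (−0.20). Over all members CD9 (0.052) and CD98 (0.038) had lain on the other side of 0.

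The antibodies to inhibitory receptors stood at nearly the same levels in CD8+ T cells and macrophages. CD279 (PD-1) was at 179 and 162 in CD8+ T cells and at 176 and 169 in macrophages. CD366 (TIM-3) was at 136 and 132 against 137 and 134, and CD223 (LAG-3) at 293 and 281 against 291 and 290. CD183 (CXCR3), CD69 and the CD3 antibody behaved alike, with CD3 at 190 and 185 in CD8+ T cells and 185 and 178 in macrophages, which lack CD3. None of these 6 antibodies passed the test against any of the 3 lymphocyte classes. Their 18 log2 differences lay between −0.048 and 0.070, with SEs of 0.026 to 0.056. Pdcd1 RNA, by contrast, was at 133 and 137 CPM in members with 1 hashtag and under 1 in macrophages. CD44 was at 37.7 and 35.4 and CD103 at 30.7 and 28.9. The 9 isotype control antibodies ranged from 9.88 to 34.2 in CD8+ T cells, and none of them passed the test.

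**Figure D4:**
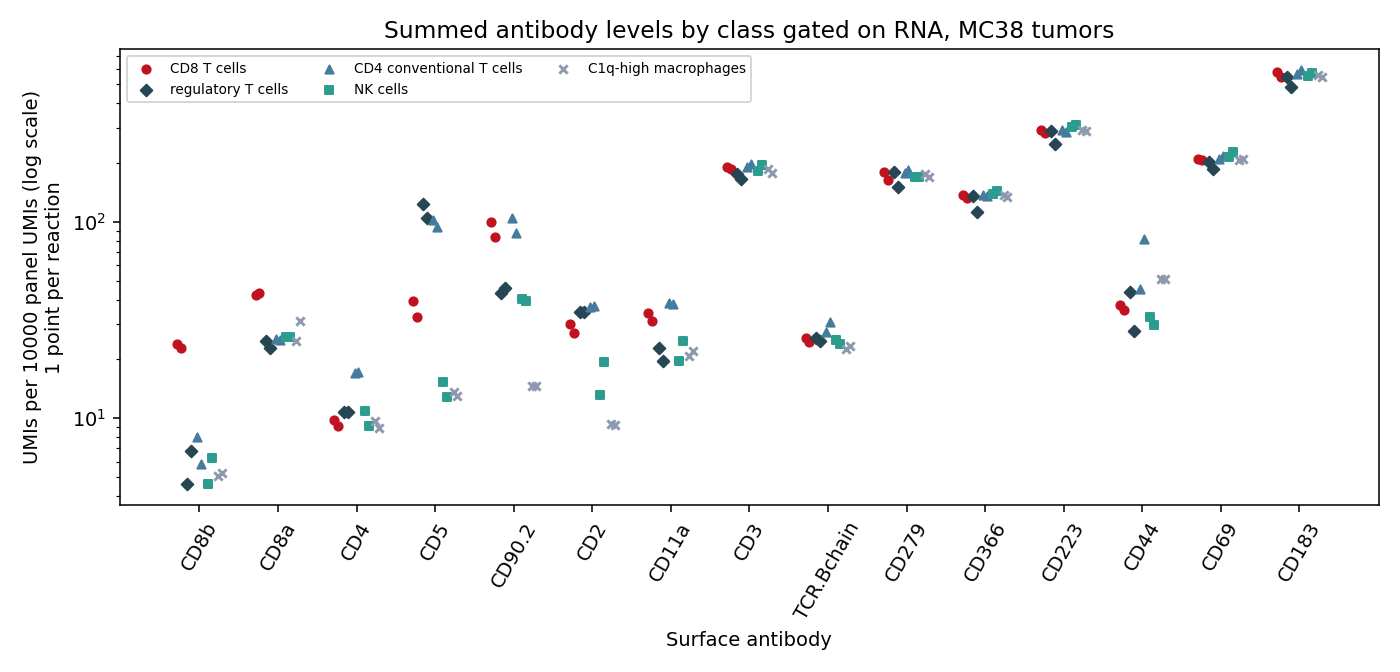
Antibody UMIs per 10000 panel UMIs in 5 MC38 classes, each point a reaction. CD8b and CD8a were highest in CD8+ T cells, CD5 lay between NK cells and the CD4+ classes at 39.5 and 32.7, and CD279 was near equal in all classes.

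CPI was compared with isotype within CD8+ T cells with 1 hashtag, the contrast that asks what checkpoint inhibition changed in these cells. Sums of at least 10 cells were available for CPI in both reactions (163 and 144 cells) and for isotype in reaction 2 only (10 cells). The isotype cells were deeper, with a mean of 7138 UMIs against 1532 and 1696, and 84% of their 71382 UMIs came from 3 barcodes with at least 2500 genes, a number at which the study's own filter left barcodes out. Of 4973 genes, 495 (9.95%) differed by edgeR's quasi-likelihood test with Benjamini-Hochberg adjustment, 279 higher (5.61%) and 216 lower (4.34%) with CPI, with a median log2 difference of 0.14 over all genes. The single isotype sum has no spread of its own, so the spread came from the 2 CPI sums, moderated over all genes, and the isotype sum was assumed to vary like them. DESeq2 called 59 of 1685 genes with an adjusted p (3.5%), 39 higher and 20 lower. With sums of at least 5 cells, which gave 2 isotype sums of 7 and 10 cells, edgeR called 454 of 2905 genes (15.6%), 299 higher (10.3%) and 155 lower (5.34%). When barcodes were given to their leading hashtag, edgeR called 217 (3.85%), 196 higher (3.48%) and 21 lower (0.373%). That fit also held the ABT-317 groups and 2 isotype sums, of which 22 of 24 and 11 of 14 members carried several hashtags, against 4 of 31 and 6 of 27 with CPI. The values below are those of the single isotype sum followed by the CPI sums of reactions 1 and 2. Depth differs between the groups throughout, and its part in the calls was not tested beyond the values of the shallow barcodes given below.

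Of 9 genes that the study linked to dysfunction and to Janus kinases, 5 passed the test and lay higher in both CPI sums than in the isotype sum. The isotype values of these 5 rest on 2 to 13 UMIs each. Dennd4a was at 182 against 1266 and 1564 CPM (log2 difference 2.94, SE 0.454, adjusted p = 3.0e-08 by edgeR). Tnfaip3, the NF-κB inhibitor, was at 56.0 against 573 and 725 CPM (3.50, SE 0.611, adjusted p = 1.6e-06 by edgeR). Nr4a3 was at 70.0 against 397 and 405 CPM (2.49, SE 0.595), Pdcd1 at 28.0 against 160 and 197 CPM (2.62, SE 0.790) and Hif1a at 98.1 against 357 and 377 CPM (1.88, SE 0.556). The other four did not pass. Ifng was at 224 against 308 and 381 CPM (0.60, SE 0.473), Jak1 at 140 against 336 and 283, Jak2 at 14.0 against 76.1 and 61.4 and Jak3 at 42.0 against 28.0 and 49.1. With sums of at least 5 cells 6 of 7 tested genes of this list were higher, by leading hashtag 3 of 8 and by DESeq2 2 of 7, Dennd4a and Tnfaip3. The study reported Ifng, Pdcd1, Dennd4a, Tnfaip3, Nr4a3 and Hif1a as higher with CPI than with CPI plus ABT-317 in CD8+ T cells, another contrast. It chose this list on these samples, so the count is not independent evidence of direction.

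The calls of several lists lay mostly in one direction, to be read against 5.61% of all genes called higher and 4.34% called lower. Of 14 tested genes of inhibitory receptors and exhaustion regulators, 6 were higher and 0 lower (median 1.90), and of 11 cytotoxic effectors, 6 were higher and 0 lower (median 1.44). In the latter, Nkg7 was at 434 against 1126 and 1261 CPM (1.44, SE 0.404), whereas Gzmb was at 98.1 against 92.1 and 139 CPM (0.22, SE 0.607) and did not pass. Costimulatory genes were higher in 4 of 10 (median 2.54), and Icos was at 14.0 against 308 and 385 CPM (4.55, SE 0.838). The isotype value of Icos is 1 UMI, and among the barcodes under 2500 genes of both reactions it was at 369 CPM with CPI against 170 (35.1 to 498). Of 25 JAK-STAT genes, 5 were higher (median 1.11), among them Stat4 at 70.0 against 256 and 344 CPM (2.07, SE 0.601) and Il2rb, the β chain of the IL-2 receptor, at 70.0 against 232 and 283 CPM (1.85, SE 0.609). Of 22 genes of the IFN-γ score list, 10 were higher and 1 lower (median 2.31). Chemokines and their receptors were higher in 4 of 8 (median 1.73) and tissue residence genes in 2 of 6 (median 1.85). The progenitor and naive list had a median of 1.97, with calls in both directions, more of them higher. With sums of at least 5 cells it had 5 higher and 1 lower of 8, and by leading hashtag 1 higher and 0 lower of 6 (median 1.05). The median was −0.59 for the interferon-stimulated list, −0.37 for the immediate early list, 0.40 for the exhausted T cell score and 0.02 for the cell death score. Of 15 immediate early genes, 1 was higher and 0 lower both with sums of at least 5 cells (median −0.17) and by leading hashtag (median 0.0755). Against the single isotype sum, genes of that list were called in both directions, more of them lower. DESeq2 called few genes of these lists, 2 of 8 cytotoxic effectors, 1 of 13 of the IFN-γ score list and 1 of 4 chemokine genes as higher, and 0 of 8 inhibitory receptors and exhaustion regulators, 0 of 6 costimulatory, 0 of 11 JAK-STAT and 0 of 4 tissue residence genes. The label markers (median 1.57) and the T cell receptor genes (median 2.20) lay higher with CPI too. A member needed a UMI of some of them, so their CPM depends on the depth of the barcode. With sums of at least 5 cells, 6 of 6 label markers and 14 of 16 T cell receptor genes were higher, against 10.3% of all genes. In that setting 6 of 12 inhibitory receptors and exhaustion regulators and 5 of 8 cytotoxic effectors were higher. So were 5 of 7 costimulatory genes and 10 of 17 of the IFN-γ score list. Whether the lists above moved apart from the T cell receptor genes was not tested.

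In the other direction, 13 of 18 cell cycle genes were called lower with CPI and none higher (median −1.87). A single isotype barcode held 90% of the 70 Ube2c UMIs and a single one 88% of the 25 Top2a UMIs. With sums of at least 5 cells, 11 of 16 cell cycle genes (median −1.71) and 7 of 12 glycolysis genes (median −1.21) were lower. The isotype sum of 7 cells that this adds drew 81.7% of its UMIs from 3 barcodes. By leading hashtag 0 of 22 cell cycle genes were called (median −0.28). Ube2c, a ubiquitin-conjugating enzyme of mitosis, was at 981 against 88.1 and 45.0 CPM (−3.89, SE 0.415) and turned to 0.72 by leading hashtag, and Top2a at 350 against 164 and 57.3 CPM (−1.68, SE 0.451). Glycolysis genes were called lower in 7 of 14 (median −1.44) and in 0 of 15 by leading hashtag (median −0.80), among them Ldha at 1905 against 649 and 774 CPM (−1.44, SE 0.339) and Pgk1 at 1849 against 381 and 418 CPM (−2.23, SE 0.355). The heme oxygenase gene Hmox1 was at 743 against 24.0 and 61.4 CPM (−4.12, SE 0.439). With it and Ube2c, Sdc2, Fabp5, Pdlim2, Def8, Klf2, Sox9, Myc and Phlda1 completed the 10 lower genes ranked first by adjusted p. A single barcode held 51.6% (Def8) to 91.9% (Phlda1) of the isotype UMIs of each of these 10. In the 7 isotype barcodes of reaction 1, Fabp5 was at 89 CPM against 192 with CPI in that reaction and Myc had no UMI against 20 CPM, while the other eight lay above CPI there. The 10 higher genes ranked first by adjusted p were taken among those higher in both CPI sums. Of these, Col1a2, Col1a1, Jchain, Igkc and Clec3b are known from fibroblasts and plasma cells. All Jchain UMIs of CPI reaction 2 lay in 1 barcode, and 99.6% of its Igkc UMIs came from 1 barcode. The remaining 5 were Dennd4a, Tmsb4x, Cmss1, Arhgdib and Ltb, which encodes lymphotoxin β and was at 28.0 (2 UMIs of 1 barcode) against 377 and 594 CPM (4.07, SE 0.710).

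Among shallow barcodes many of these distances were smaller or turned around. Under 2500 genes, the reactions pooled gave 302 CPI barcodes with 444462 UMIs and 11 isotype barcodes with 17619 UMIs, which permits counting intervals but no test. With CPI, Dennd4a was at 1546 CPM (1432 to 1666) against 908 (519 to 1475), with intervals that overlapped in part, and Tnfaip3 was at 702 against 284 (92 to 662). Pdcd1 was at 191 against 170 CPM and Nr4a3 at 441 against 284. Nkg7 was at 1305 CPM with CPI against 1986 (1384 to 2763), Ccl4 at 2446 against 6357 (5234 to 7649) and Ifng at 376 against 1192 (738 to 1822). All Ifng UMIs of these isotype barcodes lay in 1 barcode per reaction, and 88.6% of the 105 Ccl4 UMIs and 55.2% of the 29 Nkg7 UMIs of reaction 2 in 1 barcode, which the counting intervals do not cover. Cd3d was at 763 against 851 CPM and Ube2c at 51.8 against 56.8. Hmox1 was at 33.8 against 1873 (1289 to 2630), but 97% of its 33 isotype UMIs came from 1 barcode. Gapdh was at 569 against 1646 (1102 to 2364), with 73.9% of its 23 UMIs of reaction 2 from 1 barcode.

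**Figure D5:**
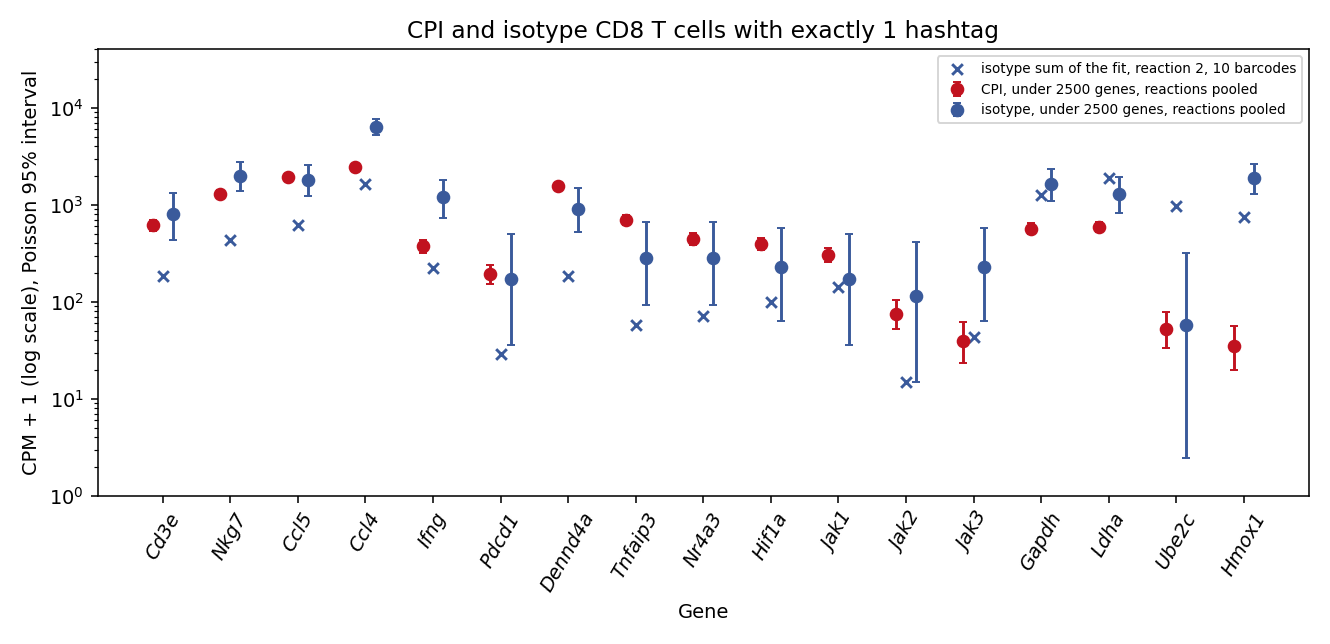
Level (CPM, log axis) of genes in CD8+ T cells with 1 hashtag and under 2500 genes, both reactions pooled, for CPI (red) and isotype (blue) with exact 95% counting intervals, and in the isotype sum of the test (cross, 10 barcodes of reaction 2). The isotype value of Nkg7 moved from 434 CPM in the sum to 1986 in the shallow barcodes, above CPI.

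No antibody of 122 (0%) differed between CPI and isotype by edgeR's quasi-likelihood test with Benjamini-Hochberg adjustment, 24 had an unadjusted p under 0.05, and DESeq2 called 11. With sums of at least 5 cells edgeR called 0, and with the reaction as a block in that fit 11, 8 higher and 3 lower. The smallest adjusted p of edgeR, 0.054, was shared by CD11b, at 69.9 against 24.7 and 24.0, CD90.2, at 62.0 against 110 and 99.8, and Ly-6A/E, at 125 against 80.5 and 71.9.

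For ABT-317, exactly 1 hashtag left under 10 members in each reaction and no test. When each barcode was given to its leading hashtag, sums of 11 to 31 cells were available in all 4 treatments. Several hashtags were above background in 18 of 20 and 13 of 24 of these members with CPI plus ABT-317, 27 of 29 and 8 of 11 with isotype plus ABT-317 and 22 of 24 and 11 of 14 with isotype, against 4 of 31 and 6 of 27 with CPI. Such barcodes can hold more than 1 cell. Of the CPI plus ABT-317 members, 2 and 7 had no hashtag above background. Only 0 and 4 carried that hashtag alone, against 27 and 21 of the CPI members. The leading hashtag was taken without centring. In reaction 2 the mean background (natural log) was 4.015 for CPI plus ABT-317, 2.815 for isotype, 2.421 for CPI and 2.285 for isotype plus ABT-317. The treatment of most ABT-317 members is therefore uncertain. Mean UMIs per cell were 2415 and 6304 with CPI, 17329 and 18322 with CPI plus ABT-317, 16295 and 24388 with isotype and 26379 and 24224 with isotype plus ABT-317. Between CPI plus ABT-317 and CPI, 176 of 5632 genes (3.12%) differed, 13 higher (0.231%) and 163 lower (2.89%) with ABT-317. Dennd4a was at 1149 and 499 CPM with CPI, 159 and 107 with CPI plus ABT-317 (log2 difference −2.53, SE 0.394, adjusted p = 0.0036 by edgeR), 130 and 87.9 with isotype and 58.8 and 82.6 with isotype plus ABT-317. Cd3g, a gene of the rule, went from 534 and 276 to 69.2 and 63.7 CPM, and 10 of 13 T cell receptor genes were lower (median −2.83). Fibroblast genes were lower too, in 4 of 5 (median −1.47), and their part in these differences was not tested. Tnfaip3 (−2.42) and Nr4a3 (−2.52) were also lower, while Pdcd1 (−1.81), Ifng (−2.62) and Jak1 (−1.23) did not pass. The study reported Dennd4a, Tnfaip3, Nr4a3, Pdcd1 and Ifng from this contrast in these samples, so they are no independent evidence of direction. Ptpn18, Gsn, Cd52, Srgn, Rora, Arl6ip1, Ctla2a and Ptprcap were the others of the 10 lower genes ranked first by adjusted p. Cxcl1, Kitl, Hmga2, Bst2, Sox9, Ier3, Il1rl1, Cst6 and Taf1 followed Ccl2 among the higher ones. The chemokine gene Ccl2 was at 214 and 499 CPM with CPI and 1685 and 1712 with CPI plus ABT-317, against 834 and 1341 with isotype. Since depth and the share of barcodes with several hashtags moved with these differences, ABT-317 and both of these cannot be told apart here. The effect of ABT-317 under isotype, the contrast of CPI plus ABT-317 with isotype plus ABT-317 and the difference between the ABT-317 effects gave 0 genes each (0%) by edgeR, with 160, 151 and 423 at an unadjusted p under 0.05.

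Within the CD8+ T cells, barcodes with Havcr2 but not Tcf7 UMIs (47 and 32) were set against barcodes with Tcf7 but not Havcr2 UMIs (34 and 31). Both transcripts were detected in 3 and 4 members and neither in 276 and 227. Of 122 antibodies, 1 differed (0.82%). CD71, the transferrin receptor of proliferating cells, was at 37.3 and 43.7 in Havcr2-detected and 76.6 and 77.3 in Tcf7-detected barcodes (log2 difference −0.95, SE 0.0879, adjusted p = 0.013 by edgeR). The difference fell to −0.035 (adjusted p = 0.95 by edgeR) among barcodes with 1 hashtag, −0.30 among those under 2500 genes and −0.51 with 2 CD8 UMIs required, and passed in none of them. In reaction 1, the median Tcf7-detected barcode held 17010 UMIs against 2452, and 27 of 34 carried several hashtags. CD8b, at 29.5 and 29.9 against 19.6 and 21.1, and CD43, CD48 and CD11a came next, each with an adjusted p of 0.059. In RNA of members with 1 hashtag, given as a description, Havcr2-detected barcodes held Pdcd1 at 322 and 338 CPM and Tcf7-detected ones at 64.0 and 78.1, from 1 UMI in each reaction. Gzmb was at 302 and 844 CPM and had no UMI in the Tcf7-detected set, whose counting intervals reached 236 and 288. Few barcodes carried Gzmb. Among all CPI members with 1 hashtag it lay in 10 of 163 and 7 of 144, and the top barcode held 26.1% and 58.8% of its UMIs. Il7r was at 261 and 152 CPM against 384 and 781.

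T cell receptor β variable genes were seen in 106 of 360 and 131 of 294 members, from 145 and 202 UMIs over 16 and 20 genes. Trbv12-2 held the largest share in both reactions, 34.5% (50 UMIs in 38 barcodes) and 34.7% (70 UMIs in 46 barcodes). In conventional CD4+ T cells it had 4 of 20 and 0 of 28 β variable gene UMIs, too few to compare. Trbv31 held 8.97% and 10.4%, Trbv19 5.52% and 8.91%, Trbv13-1 6.90% and 6.93% and Trbv16 2.76% and 8.42%. Variable genes share sequence, and UMIs of close copies could have been assigned to one another.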

How the data were processed

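Matrices of 2 MC38 tumor reactions, each with RNA, 122 surface antibodies and hashtags, were read per barcode. The authors deposited raw UMI counts per gene and antibody as matrices. The submitters' processing notes name Cell Ranger 3.1.0 and GRCm38 (mm10), and the matrix header names Cell Ranger 8.0.1. The study's methods name other Cell Ranger versions and, for its own analysis, exclude barcodes with under 200 or at least 2500 genes or at least 10% mitochondrial UMIs; only the 2500-gene limit was not applied here except as an alternative. How droplets were selected for the matrices is not given in the sources used here. All 33696 genes are named as in the files, and no coordinates are given.

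Hashtags were called per reaction by a mixture of 2 normal components on log counts, at a posterior of 0.5. Treatments were taken from the key of hashtags that the authors deposited with the series. As an alternative, a barcode was given to its leading hashtag when it led by 1 natural log unit. Members and lists were chosen with earlier results of these data known. UMI counts were summed per class or treatment and reaction, leaving out sums of under 10 cells, and compared in edgeR 4.0.16 (R 4.3.3; TMM, low-count filter, quasi-likelihood test, Benjamini-Hochberg threshold 0.05), with DESeq2 1.42.0 as an alternative. All treatments, or all 5 classes, entered 1 fit. Tregs, conventional CD4+ T cells, NK cells and C1q-high macrophages were defined by RNA gates. The NK gate required at least 1 UMI of Ncr1 or Klrb1c and none of Cd3d, Cd3e, Cd3g, Trac, Foxp3, Cd8a, Cd8b1 or Cd4. CPM intervals were exact Poisson and shares exact Clopper-Pearson, both at 95%. Ratios against under 3 UMIs were taken against 3. For detection, barcodes were thinned to 1000 UMIs, with 2000 macrophages per reaction. On data simulated for the gene comparison of CPI with isotype, edgeR (4894 genes) recovered 46% of 4-fold and 61% of 16-fold changes, with 7 false calls. DESeq2 (33696 genes) recovered 18% and 53% with 0. Counts were drawn from the means and library sizes of the sums, so UMIs concentrated in single barcodes were not simulated. The false calls are therefore no measure of those in the data.

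Named genes were the label markers, the highest and the called members of each list, and 10 genes in each direction per treatment contrast, by smallest adjusted p. The 10 were taken among called genes whose direction was the same in both reactions. Also named were the 12 highest and 12 lowest ratios against Tregs and NK cells, the antibodies that passed the test with a fixed set of receptors and the isotype controls, and 5 variable genes. The reaction number marks a shared library reaction, so it was also fitted as a block. Over 10 pairs of classes, the correlation of the antibodies' deviations in a reaction ran from −0.155 to 0.183 (median 0.0784). Lymph node samples were not used here beyond their number of barcodes. The values of a few genes and antibodies are not reported here.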

Additional observations from a re-analysis of the deposited data

How the results depend on the processing

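Of the counts and shares recomputed, 50 values stayed within 1.5 times or 1 SD and 45 moved. For CPI against isotype, 495 genes became 59 with DESeq2 and 217 by leading hashtag, and no antibody became 10 with library size scaling, 3 with isotype control scaling, 11 with DESeq2, 5 by leading hashtag and 11 with sums of at least 5 cells and the replicate block, against 0 for these sums without the block. That block gave 418 genes at the same cell minimum. Requiring 2 CD8 UMIs, under 2500 genes or thinning left no isotype sum and no value. By leading hashtag, CPI plus ABT-317 against CPI gave 176 genes and 1 antibody, and the other three ABT-317 contrasts gave 0 genes and 0 antibodies. Antibodies called against Tregs rose from 13 to 28 and against CD4+ cells from 5 to 18 with DESeq2. With the replicate block (pairing by reaction) the counts were 14 against Tregs, 4 against CD4+ cells, 12 against NK cells and 1 for Havcr2 against Tcf7, and the calls lost were CD43 against CD4+ cells and CD54 against Tregs. Havcr2 against Tcf7 gave 5 antibodies with library size scaling, 6 with DESeq2 and 0 with 2 CD8 UMIs, under 2500 genes or 1 hashtag.

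Genes 2-fold higher than Tregs went from 31 to 11 after thinning and 126 to 256 with 1 reaction left out. Lower genes went from 28 to 247 under 2500 genes, 272 thinned and 282 with 1 hashtag, and 68 to 684 with 1 reaction left out. Against CD4+ cells, higher genes went from 7 to 36 under 2500 genes, 14 thinned and 27 to 47 with 1 reaction left out, and lower genes from 21 to 94, 164 thinned, 152 with 1 hashtag and 78 to 94 with 1 reaction left out. Against NK cells, higher genes went from 22 to 61 under 2500 genes, 226 with 1 hashtag and 95 to 141 with 1 reaction left out, and lower genes from 25 to 152, 153 thinned, 56 with 1 hashtag and 83 to 252 with 1 reaction left out. One reaction alone has to pass a looser rule than both. The share of CD8+ T cells became 0.385% and 0.596% with 2 CD8 UMIs and 1.52% and 2.21% under 2500 genes, and 1.08% in reaction 2 with 1 hashtag. Its mean of 1.16% ran from 1.07% to 1.26% with 1 reaction left out. All antibodies called between classes or subsets (13, 5, 12 and 1) had the same direction in both reactions, whose sums made the calls. For CPI against isotype, leaving out reaction 1 reuses the isotype sum that made the 495 calls and is no check. Signs turned for Ube2c by leading hashtag (0.72), Jak3 with no filter (0.091), CD90.2 against CD4+ cells with 2 CD8 UMIs (0.18) and under 2500 genes (0.072), CD11a against CD4+ cells with 2 CD8 UMIs (0.0014), CD4 against NK cells with 1 hashtag (0.12) and CD357 against NK cells with library size (−0.034) and isotype control scaling (−0.033). The cause of these changes was not tested. The isotype sum held 10 cells of 1 reaction, and no ABT-317 group with 1 hashtag reached 10 cells.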
